A study of Mus musculus with 2 samples.

Results

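The cells described here met a fibroblast rule, given below, in a sort for ependymal cells of the mouse spinal cord, and are called fibroblasts or members. They number 55 of the 1939 cells that the authors kept, 32 in the library from injured cord and 23 in the library from uninjured cord. Some held more transcripts of another cell type's markers, or of bone matrix genes, than of the rule genes, as set out below. Injured cord was taken at day 3 after a dorsal funiculus incision, a cut into the dorsal white matter, and the uninjured cord was the matching region without a cut. All mice in both groups were C57BL/6J adults of at least 12 weeks that carried Troy-CreERT2+/- and Rosa26-tdTomato. In such mice a tamoxifen-dependent Cre recombinase made from the Troy (Tnfrsf19) locus switches on a red fluorescent protein, so the reporter marks cells that used that locus and their descendants, of whatever type. Segments of 5 mm were dissociated with papain, tdTomato-positive cells were sorted, and 1 library per condition was made with the 10x Genomics 3′ kit, version 2. Neither the animals pooled per library nor a tamoxifen schedule is stated in the labels.

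Fibroblasts were picked from the kept cells that the authors did not call EpA (ependymal) cells, 224 injured and 156 uninjured ones. A cell was a member when its UMIs (unique molecular identifiers, each standing for 1 captured transcript) of Dcn, Col3a1, Col1a1 and Lum summed to 5 or more, those of the endothelial genes Cldn5, Flt1, Kdr and Pecam1 to fewer than 5, and those of the macrophage genes C1qa, C1qb and C1qc to fewer than 10. Members made up 14.3% (exact 95% binomial interval 9.98 to 19.6) of these injured cells and 14.7% (9.58 to 21.3) of these uninjured cells. Just inside the threshold, 1 injured and 1 uninjured cell held 5 rule UMIs, and just outside it 0 injured and 1 uninjured cell held 4. The endothelial and macrophage limits removed 5 injured and 0 uninjured cells. The 4 rule genes chose the cells, so their levels in members are a description. Since each condition has 1 library, no comparison below has a test or a replicate check. Intervals cover counting error alone, and the cells of 1 library are not replicates.

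Fibroblasts of the central nervous system lie in the meninges, in layers named dura, arachnoid and pia, and around larger vessels. They make collagens and the small proteoglycans that space collagen fibrils, and the arachnoid layer also holds a cell barrier and solute transporters. After a spinal cord injury, fibroblasts of perivascular and meningeal origin are known to build the fibrotic scar at the lesion, and scar fibroblasts can take up actin-bundling genes of smooth muscle.

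The members' other leading genes were read to check the label. Dcn, which encodes the collagen-binding proteoglycan decorin (chr10:97479609-97518143 in GRCm38), and Lum, which encodes its relative lumican (chr10:97565128-97572703), lie on the same chromosome. The 4 rule genes took 1.06% of all UMIs in injured members and 0.785% in uninjured members as the rule requires. The other kept cells outside EpA held 0.0551% in the injured and 0.00206% in the uninjured library, and EpA cells 0.000553% and 0.000143% in the injured and uninjured library. Genes at 100 CPM (UMIs of a gene per 1000000 UMIs) or more in the members of both libraries were ranked by their excess over all other kept cells. The smaller excess of the 2 libraries was taken, and predicted, mitochondrially encoded and ribosomal protein genes were left out. The first 12 were Prg4, Mfap5, Dpt, Twist1, Col3a1, Col6a3, Crabp2, Foxd1, Rbp4, Pcolce, Pdgfra and Wnt6, of which Col3a1 is a rule gene. Mfap5, a microfibril protein (chr6:122505845-122529290), stood at 479 CPM in injured members against 2.33 CPM in the other injured cells, and at 895 CPM in uninjured members against 0.227 CPM in the other uninjured cells. Twist1, a mesenchymal transcription factor, stood at 142 CPM in injured members against 1.15 CPM in the other injured cells, and at 227 CPM in uninjured members against 0.341 CPM in the other uninjured cells. The reporter transcript, whose row in the files joins tdTomato with a WRPE element, had UMIs in 29 of 32 injured members, at 1218 CPM (1147 to 1293), and in 15 of 23 uninjured members, at 797 CPM (666 to 946).

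Depth split the members into 2 tiers with a wide gap between them. The 24 deeper injured cells held 5641 to 128532 UMIs and the 10 deeper uninjured cells 4600 to 26530 UMIs. The other 8 injured cells held 731 to 1133 UMIs and the other 13 uninjured cells 751 to 1764 UMIs, and a limit of 2000 UMIs separates the tiers in both libraries. The shallow cells gave 0.775% of the injured members' UMIs and 7.91% of the uninjured members' UMIs. In total the members held 893835 UMIs in the injured and 163120 UMIs in the uninjured library.

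A set of 7 cell barcodes, the 16-base tags that mark droplets, belonged to members in both libraries. They are printed whole and in capitals, since every base was the same in both libraries, with cells numbered from the deepest down within each library.
injured cell 25 and uninjured cell 13: TCCGGGAGTCTCAAGT
injured cell 26 and uninjured cell 12: TACGGGCCAGTAGGAC
injured cell 27 and uninjured cell 14: CAACAACTCTCTCTTC
injured cell 28 and uninjured cell 17: GCTGGGTAGTGCTCGC
injured cell 29 and uninjured cell 15: TGACGCGCATCTGCGG
injured cell 31 and uninjured cell 16: TGCTTCGGTGATTCAC
injured cell 32 and uninjured cell 19: TGAATGCAGGATATGT
These 7 barcodes are 21.9% of the injured and 30.4% of the uninjured members, while only 18 barcodes were shared at all, 1.15% of the injured and 2.05% of the uninjured barcodes. Every one of the 7 was shallow in both libraries, with 731 to 1133 UMIs in the injured and 828 to 1301 in the uninjured library, a ratio of 0.808 to 0.922. Among the other 11 shared barcodes, 10 were 66.7 to 172 times deeper in one library than in the other. One of those was injured cell 1, the deepest fibroblast at 128532 UMIs, whose barcode held 748 UMIs and 0 rule UMIs in the uninjured library. Across genes, the log UMI counts of the 7 barcodes correlated with their own copy at r = 0.452 to 0.526, and with the other copies at 0.414 to 0.520, as a description over genes of sparse cells. The own copy was the best match for 4 of the 7. Whether these barcodes are separate cells or reads of the same droplet counted in both libraries cannot be told apart from the counts, and whether the 7 uninjured copies are uninjured fibroblasts is therefore not known.

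**Figure D1:**
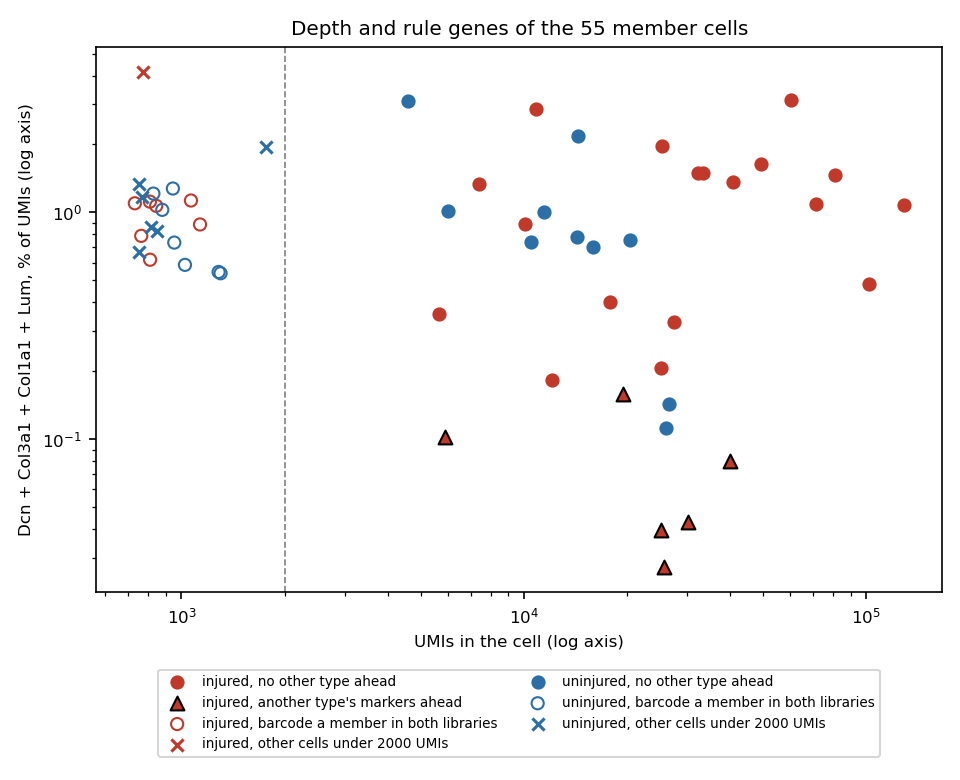
UMIs per cell (x, log axis) against the percentage of UMIs from Dcn, Col3a1, Col1a1 and Lum (y, log axis) for the 32 injured and 23 uninjured members. The dashed line marks 2000 UMIs, and all 7 barcodes that are members in both libraries (open circles) lie to its left, as do 8 injured and 13 uninjured cells in all.

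Markers of other cell types were read in the same cells. Among the deeper injured cells, 6 of 24 held more UMIs of another type's marker list than of the rule genes, and among the deeper uninjured cells 0 of 10 did. Ependymal markers led in 4 of the 6, injured cells 8, 11, 13 and 16, which held 7 to 32 rule UMIs, all of them Dcn. Cell 13 carried 380 UMIs of Nnat and cell 16 carried 72 UMIs of the astrocyte filament gene Gfap. In cell 17 the oligodendrocyte list led through Cldn11, a tight junction gene that arachnoid barrier cells also use, and in cell 23 the oligodendrocyte precursor list led through Pdgfra, itself a fibroblast marker. Without these 6, the sum of the 12 ependymal markers stood at 535 CPM in the injured and 579 CPM in the uninjured deeper cells, and at 1229.5 CPM in injured and 564 CPM in uninjured cells over all members. In the injured cells 10 of 12 of these were detected, with Tmem212 and Hydin at 0, and in the uninjured cells 6 of 12, with Foxj1 and Hydin among those at 0. The endothelial markers that the rule did not use summed to 234 CPM in injured and 393 CPM in uninjured cells, with 5 of 11 detected in each and Tie1, Plvap and Vwf at 0 in both. Astrocyte markers summed to 396 CPM in injured and 573 CPM in uninjured cells, with Aqp4 and Slc1a2 at 0 in both, and microglia and macrophage markers to 33.8 CPM in injured and 73.2 CPM in uninjured cells, with Tyrobp and Ctss at 0 in both. Neuron markers summed to 247 CPM in injured and 6.66 CPM in uninjured cells, nearly all of it Tubb3, with 116 of 183 injured UMIs in cell 2 and Snap25 and Syt1 at 0 in both. Oligodendrocyte markers summed to 23.0 CPM in injured and 186 CPM in uninjured cells, mostly Cldn11 in the uninjured cells, and Schwann cell markers to 99.9 CPM in injured and 226 CPM in uninjured cells, nearly all Pmp22. The listed lymphocyte and red cell markers had 0 UMIs in both, and the neutrophil markers had 0 in injured and 2 in uninjured cells. Doublets were not called, and the part of other cell types in what follows was not tested beyond the values without these cells.

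Results are therefore given for the 28 deeper cells in which no marker list of another cell type exceeded the rule genes, 18 injured with 740519 UMIs and 10 uninjured with 150210 UMIs, a set chosen after the data had been seen, beside those for all 55 members. Bone matrix and arachnoid barrier genes, described further on, were not among those lists, and they exceeded the rule genes in 1 of the 18 injured and 4 of the 10 uninjured cells. The removal was thus uneven, since injured cells 17 and 23, of these 2 kinds, were left out through other lists. Without all cells of these kinds, 17 injured and 4 uninjured ones, 457 genes were called higher and 248 lower. A gene was called by size, at 100 CPM and 10 UMIs or more in either group and a 2-fold ratio, so low genes could not be called. Over all 55 members, 272 of 1891 genes past that floor (14.4%) passed 2-fold on the higher side in injured cells and 332 (17.6%) on the lower side. In the 28 deeper cells, 353 of 1882 (18.8%) were higher and 378 (20.1%) lower, and 239 of the higher and 318 of the lower genes were called in both sets. Gene lists below are counted over measured genes, those at a mean of 20 CPM or more. Only members past the floor could be called. Their number in the deeper cells is given with each list count, to be set beside these 18.8% and 20.1%. The end of the counting interval nearest to no change was itself past 2-fold for 109 higher genes (5.79%) and 229 lower genes (12.2%) of the deeper cells, and for 61 higher (3.23%) and 195 lower genes (10.3%) over all members. The median log2 ratio of all genes past the floor was 0.23 in the deeper cells and 0.20 over all members. Higher genes made up 45.0% of the calls over all members, and 61.5% with TMM scaling and 56.6% with median-of-ratios scaling, 2 ways to set the totals that moved this median to 0.40 and 0.33. Dividing by cells and not by UMIs moved it to 2.18, since injured members were deeper, and then 95.3% of the calls were higher. That step raises every ratio by the same factor, so a gene moderately lower by UMIs turns higher by arithmetic alone.

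Smooth-muscle-type actin genes marked the deeper injured cells. Tagln, the actin-binding protein transgelin (chr9:45929619-45936058), had 1294 UMIs in 17 of 18 deeper injured cells, at 0 to 6061 CPM with a median of 1016 CPM, and 0 UMIs in all 10 deeper uninjured cells. With the uninjured sum set to 3 counts, the limit that a count of 0 allows, it was at least 87.5-fold higher in injured cells. Acta2, smooth muscle actin, had 465 UMIs in 13 of 18 injured cells and 0 in the uninjured ones, at least 31.4-fold higher, with 47.7% of the injured UMIs in 1 cell. Myl9, a myosin light chain, had 197 UMIs in 14 of 18 injured cells and 1 in the uninjured cells. Tpm2, a tropomyosin, stood at 577 CPM in injured cells (95% interval 523 to 634) and 33.3 CPM in uninjured cells (10.8 to 77.7). Most injured cells thus carried these transcripts at some level, and no deeper uninjured cell carried Tagln or Acta2. Mural cells use Tagln and Acta2 too. Of 10 other mural markers, 6 were detected in injured and 3 in uninjured cells, with Myh11, which defines smooth muscle, at 0 in both. Des, the muscle filament gene desmin, had 73 UMIs in 7 injured cells (98.6 CPM) and 0 in uninjured cells, while Abcc9 stood at 6.75 CPM in injured and 99.9 CPM in uninjured cells. The part of mural transcripts in these values was not tested.

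Several secreted scar genes were also higher in injured cells, while the matrix genes Postn, Fn1, Tnc and Sparc of the same list were not called. Cthrc1, a secreted protein of activated fibroblasts (chr15:39076932-39087121), had 520 UMIs in 16 of 18 injured cells, at a median of 489 and up to 1893 CPM, and 1 UMI in 1 of 10 uninjured cells. Lgals1, which encodes galectin-1, was 13.4-fold higher (10.1 to 18.2) in injured cells, at 896 to 12055 CPM in the 18 injured cells and 0 to 678 CPM in the 10 uninjured cells. Among these 18 injured and 10 uninjured cells, the lowest injured cell lay above the highest uninjured one. Of the deeper injured cells left out, cells 13, 16 and 23 stood below that uninjured cell, at 506, 438 and 170 CPM. Cells 8, 11 and 17 stood above it, at 1425, 3776 and 2356 CPM. Shallow uninjured cell 20 reached 8610 CPM. How many of all genes separate the groups in this way was not counted. Timp1, an inhibitor of matrix proteases, stood at 2029.7 CPM in injured cells (95% interval 1928 to 2135) and 766 CPM in uninjured cells (632 to 919), and 1 uninjured cell gave 77.4% of the uninjured UMIs. Tgfbi, a TGF-beta-induced matrix protein, was 6.06-fold higher (3.03 to 14.2) and Thbs2, a thrombospondin, 3.75-fold higher (1.67 to 10.4) in injured cells. Il11, a cytokine of fibroblast activation, had 141 UMIs in 11 of 18 injured cells and 0 in the uninjured cells, with 53.2% in 1 cell. Of the fibrotic scar and myofibroblast list, 10 of 20 measured members (19 past the floor) lay 2-fold or more above and 3 lay 2-fold or more below the uninjured level (9 above and 3 below of 20 over all 55 cells), with a median log2 ratio of 1.06 against -0.14 over all measured genes. The lower members were Thbs1, Spp1 and Cdh11, of which Cdh11 turned to a log2 ratio of 0.82 over all members with UMIs counted per cell and Thbs1 to 0.02 with every cell weighted alike. Without the cells of the bone and barrier kinds all 3 had log2 ratios above 0.

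**Figure D2:**
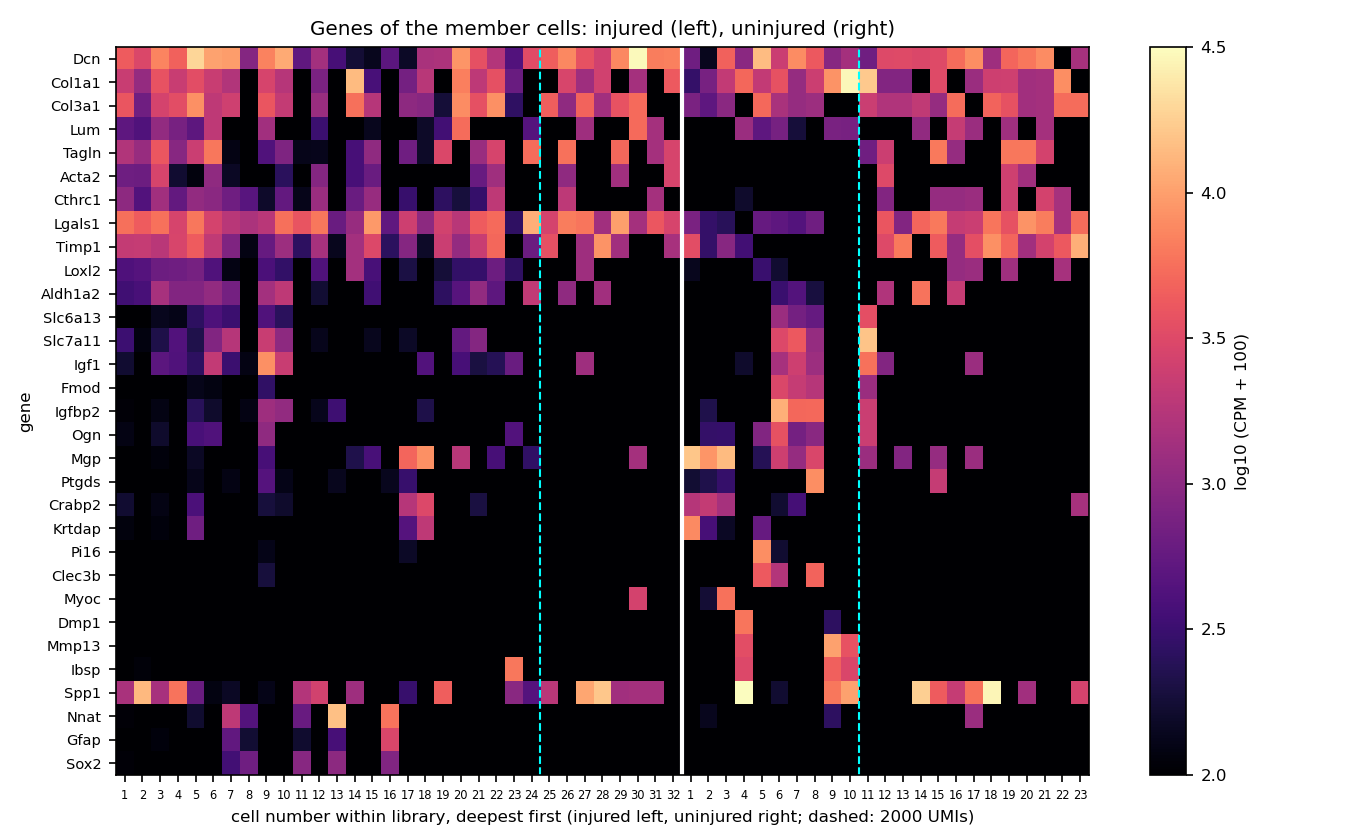
Each column is 1 member cell, the 32 injured cells left and the 23 uninjured cells right of the white line, deepest first, and each row a gene, coloured by log10 of its CPM plus 100. Dashed lines mark 2000 UMIs: Tagln, Acta2 and Cthrc1 appear left of it in injured cells, are nearly absent left of it in uninjured cells, and reappear in the shallow uninjured cells on the far right.

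Shallow uninjured cells carried scar transcripts that the 10 deeper ones lacked, in 7 of 13 cells for Tagln. All 23 uninjured Tagln UMIs and all 7 uninjured Acta2 UMIs came from shallow cells, as did 9 of the 10 Cthrc1 UMIs. The barcodes that are members in both libraries held 15 of the 23 Tagln UMIs. In the 7 barcodes found in both libraries, Tagln stood at 2112 CPM in the injured and 2079.6 CPM in the uninjured copy, and Lgals1 at 4711 CPM in the injured and 3327 CPM in the uninjured copy. The 10 deeper uninjured cells held 0 CPM of Tagln and 326 CPM of Lgals1. Inhba, an activin subunit, stood at 1462 CPM in the injured and 1248 CPM in the uninjured copies. It stood at 138 CPM in all 24 deeper injured cells, those with another type ahead included, and at 13.3 CPM in the 10 deeper uninjured cells. These are sums of 6156 injured and 7213 uninjured UMIs, so each level rests on few counts. With every cell weighted alike, the log2 ratios of Myl9 and Il11 over all members were -0.37 and -0.25 and that of Thbs2 was -1.31. With each cell thinned to 1000 UMIs, which left out the 6 injured and 9 uninjured members under that depth, they were -0.60 for Tgfbi and -0.53 for Cnn2. With all members summed, Tagln was 10.5-fold higher (6.94 to 16.6) and Cthrc1 9.91-fold higher (5.35 to 20.8) in injured cells. Of the 272 genes higher over all members, 268 had uninjured UMIs, and a median of 18.2% of those UMIs came from shallow cells, against 7.69% over all genes past the floor.

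Among collagens and the enzymes that process them, 8 of 24 measured members (19 past the floor) lay 2-fold or more above and 4 lay 2-fold or more below the uninjured level (2 above and 5 below of 24 over all 55 cells), with a median log2 ratio of 0.93. The higher members were Col3a1, Col5a1, Col5a2 and Col5a3, chains of fibrils or their core, P4ha1 and Plod3, which hydroxylate collagen chains, and Lox and Loxl2, which cross-link them. Col3a1, a rule gene, was 2.84-fold higher (2.42 to 3.35) in injured cells, and Col1a1, also a rule gene, stood at 2548 CPM in injured and 2956 CPM in uninjured cells. Without uninjured cells 4, 9 and 10, which carry bone matrix genes, Col1a1 stood at 2548 CPM in injured and 1448 CPM in uninjured cells, the opposite order. Loxl2 stood at 390.3 CPM in injured cells (95% interval 347 to 438) and 33.3 CPM in uninjured cells (10.8 to 77.7), with UMIs in 16 of 18 injured and 3 of 10 uninjured cells. The lower members were Col11a1, Col12a1, the procollagen enhancer Pcolce2 and the procollagen protease Adamts2, of which Col12a1 turned to a log2 ratio of 0.02 over all members with UMIs counted per cell. In Pcolce2, 1 uninjured cell held 96.2% of the uninjured Pcolce2 UMIs. Col4a1, a basement membrane collagen, was 3.64-fold higher (2.08 to 6.93) and its partner Col4a2 2.23-fold higher (1.17 to 4.78) in injured cells. Over all members only Col3a1 and Loxl2 of the first group and Col4a1 of the second were called higher.

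Among small leucine-rich proteoglycans, which bind collagen fibrils, more members were called lower than higher, while the summed level of the list was higher. In injured cells 1 measured member of 8 (7 past the floor), Lum, was called higher and 4 were called lower. The list's median log2 ratio was -1.63, and -1.16 over all members, which turned to 0.82 with UMIs counted per cell. Its sum was 8237 CPM in injured and 6265 CPM in uninjured deeper cells. Most of that was the rule gene Dcn, not called, at 6296 CPM in injured and 3342 CPM in uninjured cells. Fmod, fibromodulin, was 46.0-fold lower (23.1 to 104) in injured cells, at 12.2 CPM in injured and 559 CPM in uninjured cells, with UMIs in 3 of 18 injured and 3 of 10 uninjured cells. Ogn, osteoglycin, was 5.88-fold lower (4.25 to 8.13) and found in 5 of 18 injured and 6 of 10 uninjured cells. Aspn, asporin, had 0 injured UMIs and 28 uninjured UMIs, all in 1 cell. Among elastic fibre genes, Fbln2 and Efemp2, which encode fibulins, were 4.19-fold higher (2.30 to 8.50) and 4.28-fold higher (2.21 to 9.51) in injured cells, while Eln, elastin, stood at 4.05 CPM in injured and 173 CPM in uninjured cells. All 11 uninjured Fbln2 UMIs lay in 1 cell.

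**Figure D3:**
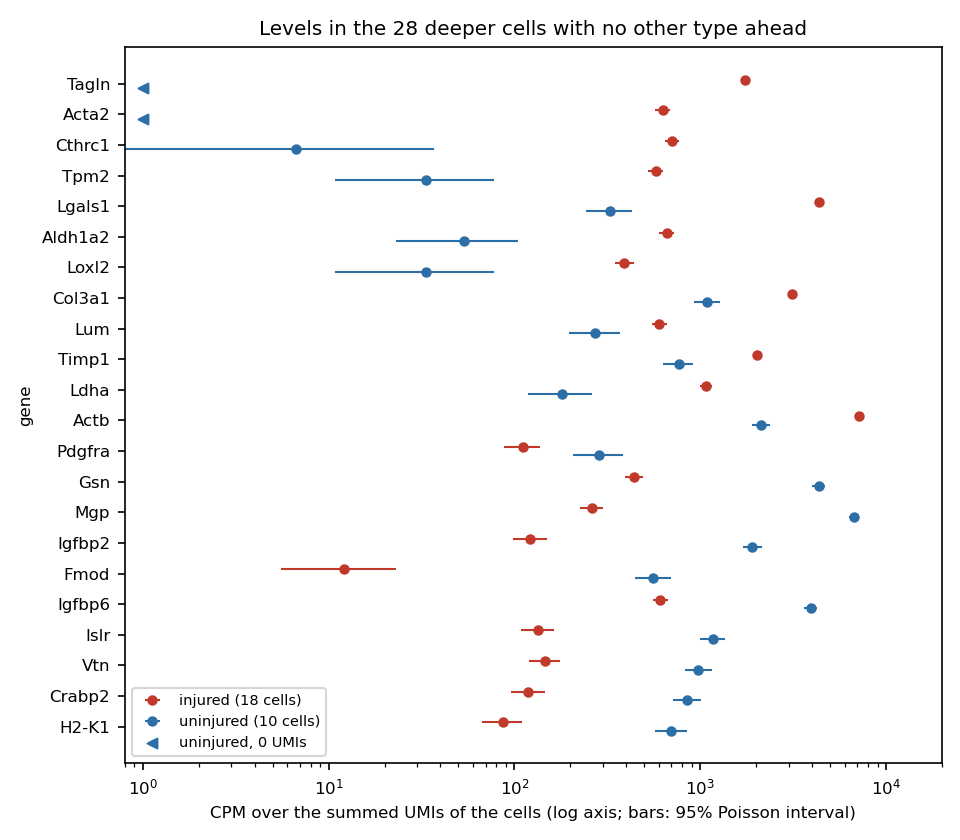
Level of 22 genes (y) in CPM (x, log axis) over the summed UMIs of 18 injured and 10 uninjured deeper cells with no other type's list ahead, with 95% Poisson intervals for counting error. Tagln and Acta2 had 0 UMIs in the uninjured cells (triangles), and genes from Pdgfra down were lower in injured cells.

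Several insulin-like growth factor binding proteins and BMP genes were lower in injured cells. Most measured members of both lists were not called, among them those under the floor, which could not be. Of the insulin-like growth factor list, 1 of 12 measured members (9 past the floor) lay 2-fold or more above and 4 lay 2-fold or more below the uninjured level (0 above and 4 below of 12 over all 55 cells). Igfbp2, a binding protein, was 15.7-fold lower (12.4 to 20.2), at 122 CPM in injured and 1911 CPM in uninjured cells, and Igfbp6 was 6.42-fold lower (5.67 to 7.28). Igfbp5 was 11.5-fold lower (9.66 to 13.8) in the deeper cells, while Igfbp7 was 2.55-fold higher (2.07 to 3.17). Igf2, the growth factor itself, stood at 39.2 CPM in injured and 373 CPM in uninjured cells. Of the TGF-beta and BMP list, 1 of 23 measured members (11 past the floor) lay 2-fold or more above and 7 lay 2-fold or more below the uninjured level (0 above and 8 below of 23 over all 55 cells), with a median log2 ratio over all members of -1.23 that turned to 0.75 with UMIs counted per cell. Its higher member, Inhba, stood at 163 CPM in injured and 13.3 CPM in uninjured cells, with 52.1% of the injured UMIs in 1 cell and 2 uninjured UMIs in all. Id1, a target of BMP signals, was 10.6-fold lower (6.93 to 16.6), and the ligands Bmp2 and Bmp4 stood at 12.2 CPM in injured and 126 CPM in uninjured cells and 39.2 CPM in injured and 186 CPM in uninjured cells. Rspo3, an enhancer of Wnt signals, stood at 6.75 CPM in injured and 159.8 CPM in uninjured cells.

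The MHC class I genes H2-D1 and H2-K1 were lower, and the interferon-induced gene Ifitm1 and the chemokine genes Ccl2 and Ccl7 were higher. Of the interferon and MHC class I list, 1 of 16 measured members (8 past the floor) lay 2-fold or more above and 4 lay 2-fold or more below the uninjured level (2 above and 4 below of 16 over all 55 cells). H2-D1 and H2-K1, heavy chains of MHC class I, were 8.05-fold lower (6.04 to 10.8) and 8.09-fold lower (5.87 to 11.2) in injured cells, and both were found in 10 of 10 uninjured cells, against 12 and 14 of 18 injured cells. Clu, clusterin, was 17-fold lower (12.4 to 23.7), with 52.3% of the uninjured UMIs in 1 cell. The complement list had 4 of 7 measured members (5 past the floor) at least 2-fold lower and 0 higher, and its median over all members, -1.42, turned to 0.56 with UMIs counted per cell. Ifitm1, an interferon-induced membrane protein, was 6.82-fold higher (4.59 to 10.6) in injured cells and had UMIs in 17 of 18 injured and 5 of 10 uninjured cells. Ccl2 and Ccl7, chemokines that draw monocytes, were 2.20-fold higher (1.49 to 3.36) and 2.67-fold higher (1.71 to 4.38), and in both all uninjured UMIs came from 1 cell. Few injured cells gave most of theirs, with 132 and 96 Ccl2 UMIs in injured cells 1 and 5. For Ccl7 the largest counts were 163 and 72 UMIs in injured cells 2 and 1. Of the chemokine and cytokine list, 3 of 11 measured members (7 past the floor) lay 2-fold or more above and 1 lay 2-fold or more below the uninjured level (1 above and 1 below of 12 over all 55 cells).

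The 10 deeper uninjured cells were of several kinds, each of few cells, which the pooled ratios mix. The kinds below are bone matrix genes at 0.1% of UMIs, barrier genes at 0.3%, or 5 Slc6a13 UMIs. Of the 18 deeper injured cells, 12 were of none of these, with 506361 of the 740519 UMIs. Of the 10 uninjured cells only cell 5, with 14411 UMIs, was of none. The pooled ratios thus set largely unlike mixes of cells side by side, and the part of this in them was not tested. These kinds were read from the cells after their values had been seen. Uninjured cells 1, 2 and 3 carried 65 to 389 UMIs of arachnoid barrier genes such as Krtdap, Crabp2 and Cldn11, and injured cells 17 and 18 carried 210 and 143. Crabp2, a retinoic acid carrier, had 33 and 53 UMIs in these 2 injured cells and 44, 53 and 27 in the 3 uninjured cells. Mgp, matrix Gla protein, an inhibitor of calcification (chr6:136872435-136875823), had 94 and 148 UMIs in the injured and 419, 228 and 281 UMIs in the uninjured barrier-gene cells, at like depths of 17861 to 26530 UMIs. These 5 cells had 0 UMIs of Acta2 and Aldh1a2, and Tagln was found in the 2 injured ones alone, with 11 and 1 UMIs.

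Uninjured cell 5 was the one member rich in genes of the Pi16 type of fibroblast, which is found in many tissues. It held 116 of the 117 uninjured UMIs of Pi16, a secreted protease inhibitor (chr17:29317680-29330593), and 60 of the 133 UMIs of Clec3b, tetranectin. Clec3b was not particular to this cell, with 50 UMIs in uninjured cell 8 and 23 in cell 6. Its level was 4760 CPM in cell 8 and 4163 CPM in cell 5. All 26 Ly6c1 and all 35 Cd34 UMIs of the deeper uninjured cells were in 1 cell. In the deeper injured cells Pi16 had 1 UMI and Clec3b 3 UMIs. Of the list of such genes, 0 of 11 measured members (9 past the floor) lay 2-fold or more above and 6 lay 2-fold or more below the uninjured level (0 above and 7 below of 11 over all 55 cells), and of the dural list 6 of 7 (6 past the floor) were lower and 0 higher. Myoc, myocilin, was likewise nearly a single-cell result, with 116 of 118 uninjured UMIs in cell 3.

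Bone matrix transcripts set apart uninjured cells 4, 9 and 10. Their UMIs of 10 such genes summed to 285, 135 and 46, at least 1% of each cell's UMIs. Dmp1, a matrix protein of osteocytes (chr5:104202613-104214102), had 96 UMIs in cell 4 and 1 in cell 9. Mmp13, a collagenase, had 53, 60 and 17 UMIs in the 3 cells and 0 in every injured member, at least 214-fold lower in injured cells. Ibsp, bone sialoprotein, had 48, 27 and 13 UMIs in them, and 36 UMIs in injured cell 23, the only injured cell of that kind. Spp1, osteopontin, a secreted protein of bone and of macrophages, had 2017 of its 2101 deeper uninjured UMIs in cell 4, and 1389 of 2282 injured UMIs in cell 2. Spp1 was 4.54-fold lower (4.28 to 4.82) in the deeper injured cells, and without uninjured cells 4, 9 and 10 its log2 ratio was 7.99, higher in injured cells.

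Cells with the transporter gene Slc6a13, which encodes a GABA and taurine carrier of meningeal fibroblasts, occurred in both libraries and could be set side by side. With 5 UMIs or more, there were 5 injured cells, numbers 5, 6, 7, 9 and 10 with 216297 UMIs in all, and 4 uninjured cells, numbers 6, 7, 8 and 11 with 38033 UMIs. The injured cells held 32346 to 60429 UMIs each and the uninjured cells 1764 to 14345, cell 11 being a shallow one. All 9 also held the cystine carrier gene Slc7a11 and the growth factor gene Igf1. Igf1 stood at 2136 CPM in injured cells (1946 to 2339.9) and 1788 CPM in uninjured cells (1388 to 2267). Slc6a13 itself was 231 CPM in injured cells (172 to 305) and 894 CPM in uninjured cells (619 to 1249), and since the injured cells were deeper, 5 UMIs is a lower level in them. The choice of this gene and limit was made after the values had been seen.

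For Cthrc1, Timp1, Lgals1 and Aldh1a2 the lowest injured cell lay above the highest uninjured cell, though for Cthrc1 the lowest injured cell held 2 UMIs of 33474, a level not detectable in the shallower uninjured cells. Cthrc1 had 143 UMIs over the 5 injured cells, 2 to 60 a cell, and 0 in the 4 uninjured cells. Timp1 had 433 UMIs over the injured cells, 16 to 253 a cell, and 0 in the uninjured cells, so it was at least 25.4-fold higher. Lgals1 stood at 1737 to 6139 CPM per injured cell and 0 to 571 CPM per uninjured cell. Aldh1a2, which makes retinoic acid and marks arachnoid fibroblasts, stood at 1045 CPM in injured cells (913 to 1190.3) and 210.3 CPM in uninjured cells (90.8 to 414). Tagln was uneven, with 298 UMIs in injured cell 6, 137 in cell 5, 23 in cell 10, 11 in cell 9 and 1 in cell 7, and 1 UMI in uninjured cell 11.

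In the same cells, fibromodulin, Igfbp2, Mgp and Gsn were lower in the injured ones. Fmod had 0 to 6 UMIs in each injured cell and 42, 24, 18 and 2 in uninjured cells 6, 7, 8 and 11, at 41.6 CPM in injured cells (19 to 79.0) and 2261 CPM in uninjured cells (1809 to 2793). Igfbp2 stood at 0 to 1195 CPM per injured cell and 2268 to 12129.7 CPM per uninjured cell. Mgp had 0, 0 and 0 UMIs in injured cells 6, 7 and 10, 3 in cell 5 and 9 in cell 9, against 34, 12, 30 and 2 in uninjured cells 6, 7, 8 and 11. Gsn, gelsolin, which severs actin filaments, stood at 314 CPM in injured cells (244 to 399) and 1762 CPM in uninjured cells (1365 to 2237). Dcn and Col3a1, rule genes, stood at 6990.5 to 19428 and 1932 to 8109 CPM per injured cell and at 567 to 7793 and 1051 to 2268 CPM per uninjured cell, with overlap. For Fmod, Igfbp2, Mgp and Gsn the injured and uninjured cells did not overlap. Actb and Islr did not overlap either, while Tagln, Acta2, Loxl2, Tpm2, Ldha and Ogn, among others, did. Slc6a13 chose the cells, so its levels are no separation of the groups. The limit of 5 UMIs alone kept the uninjured cells, of at most 14345 UMIs, above the injured maximum of 329 CPM. The genes read in these cells were picked after their values had been seen. How many of all genes separate so few cells in the same way was not counted.

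**Figure D4:**
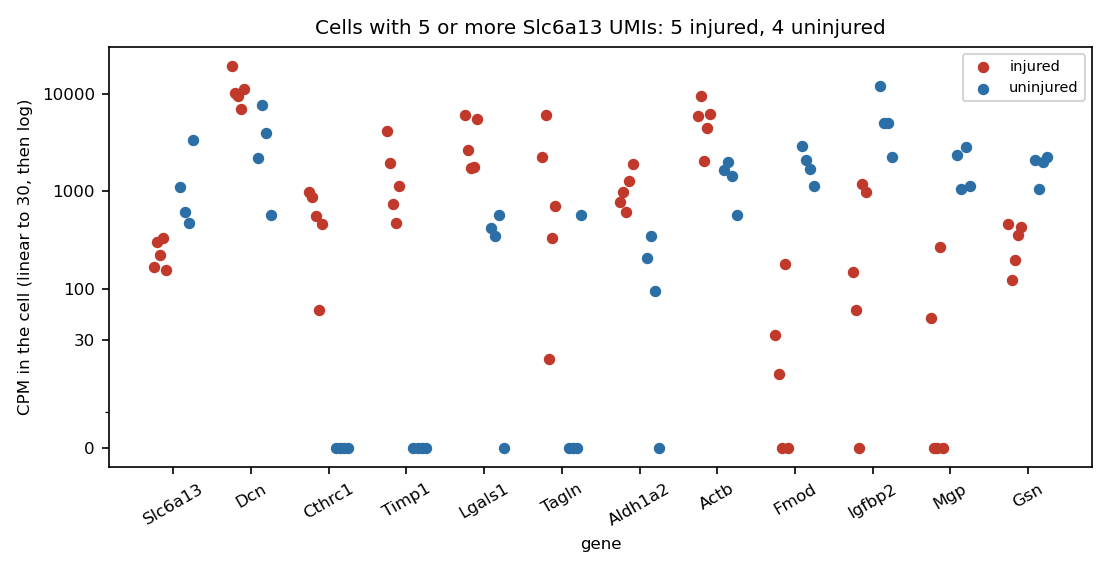
CPM per cell (y, linear to 30 and log above) of 12 genes in the 5 injured (left of each pair) and 4 uninjured (right) cells with at least 5 Slc6a13 UMIs. Cthrc1 and Timp1 are at 0 in every uninjured cell, and Fmod, Igfbp2, Mgp and Gsn are lower in every injured cell than in any uninjured one.

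Over the whole set of 28, Aldh1a2 was 12.4-fold higher (6.24 to 28.9) in injured cells, at 660.3 CPM in injured and 53.3 CPM in uninjured cells, with UMIs in 16 of 18 injured and 3 of 10 uninjured cells. The 3 uninjured cells with it were the deeper Slc6a13 cells. After thinning to 1000 UMIs, over the 26 injured and 14 uninjured members that reach this depth, its log2 ratio was -0.51. Of 9 measured solute carriers (8 past the floor), 6 were called lower in injured cells and 0 higher, with a median log2 ratio of -3.02. Pdgfra, a growth factor receptor and common fibroblast marker, was 2.59-fold lower (1.74 to 3.78) in the deeper injured cells, and over all members its log2 ratio turned to 0.73 with UMIs counted per cell. Of the 16 fibroblast markers outside the rule (16 past the floor), 3, Aldh1a2, Col5a1 and Col5a2, were called higher and 6 lower, and over all members 1 was higher and 7 lower. Among the lower ones, Islr, Vtn and Mfap4 were 8.71-fold lower (6.77 to 11.3), 6.71-fold lower (5.2 to 8.68) and 6.14-fold lower (4.21 to 8.99).

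Several glycolysis genes and both cytoplasmic actins were higher in injured cells. Of the glycolysis and hypoxia list, 8 of 15 measured members (12 past the floor) lay 2-fold or more above and 1 lay 2-fold or more below the uninjured level (7 above and 1 below of 15 over all 55 cells), with a median log2 ratio of 1.36. Ldha, lactate dehydrogenase, was 5.97-fold higher (4.07 to 9.12), Pkm, pyruvate kinase, 3.52-fold higher (2.53 to 5.04), and Gapdh 3.16-fold higher (2.55 to 3.97). Slc16a3, a lactate exporter, had 87 UMIs in 10 of 18 injured cells and 0 in the uninjured cells. Of the cytoskeleton and migration list, 8 of 25 measured members (25 past the floor) lay 2-fold or more above and 5 lay 2-fold or more below the uninjured level (7 above and 5 below of 25 over all 55 cells), with a median log2 ratio of 0.32. Actb and Actg1, the cytoplasmic actins, were 3.34-fold higher (2.98 to 3.75) and 3.37-fold higher (2.91 to 3.93), and the actin-turnover gene Cfl1 was 3.82-fold higher (2.83 to 5.28). The lower members included S100a10 and Lgals3, of which S100a10 turned to a log2 ratio of 0.61 over all members with UMIs counted per cell. In Lgals3 1 uninjured cell held all 114 uninjured UMIs of the deeper cells, and without the deepest cell of each library its log2 ratio over all members was 4.08. The folding enzyme gene Pdia6 and the chaperone gene Hsp90aa1 were 3.38-fold higher (2.5 to 4.67) and 3.99-fold higher (2.82 to 5.80).

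Transcripts of dividing cells were found in few cells. Top2a had 85 UMIs in 6 of 18 injured cells and 0 in the 10 uninjured cells, with 58.8% in 1 cell. Birc5 had 110 UMIs in 10 of 18 injured cells and 1 in the uninjured cells. The S-phase histone gene Hist1h2ap had 357 UMIs in 5 injured cells, 85.2% of them in 1 cell. Of the cell division list, 3 of 15 measured members lay 2-fold or more above and 0 lay 2-fold or more below the uninjured level (3 above and 0 below of 17 over all 55 cells), namely Top2a, Birc5 and Cenpa, the 3 past the floor. Its median over all members, 1.56, turned to -0.15 with every cell weighted alike, and it was -0.16 over the 26 injured and 14 uninjured members left after thinning. Up to 1.09% of the UMIs of a shallow uninjured cell came from this list. No phase of the cell cycle was read from these counts.

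**Figure D5:**
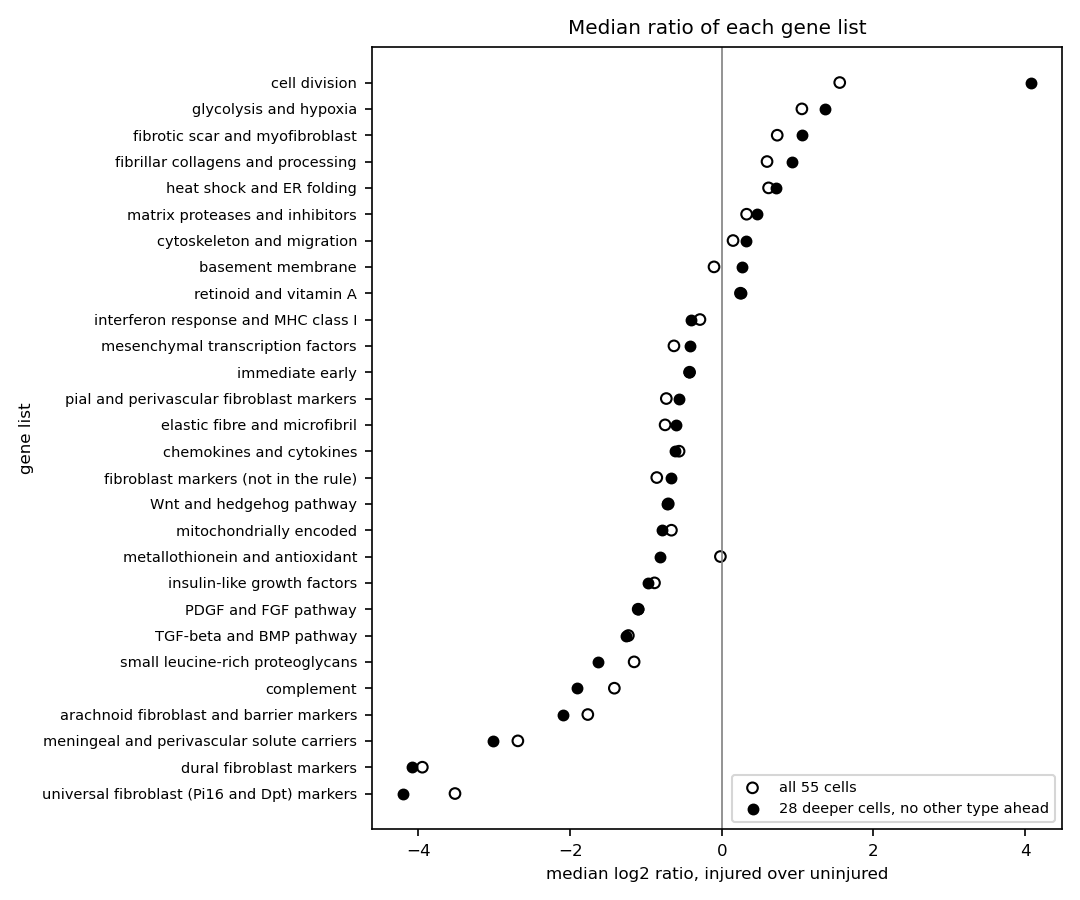
Median log2 ratio, injured over uninjured (x), of the measured members of 28 gene lists (y), over all 55 cells (open circles) and over the 28 deeper cells with no other type's list ahead (filled). Cell division, glycolysis and scar lists lie right of 0, and the dural, Pi16-type and solute carrier lists lie left of -2 in both sets.

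Some of the largest ratios over all members were of genes known from ependymal and glial cells. Ordered by ratio, Nnat was number 1, Fabp7 12, Cd24a 18, Gfap 22 and Sox2 23 of the 272 higher genes, with 638, 127, 110, 103 and 101 injured UMIs. In the 18 deeper injured cells they had 84, 2, 7, 19 and 11, and all but Nnat were no longer called. Most of the remaining Nnat, Gfap and Sox2 UMIs were in injured cell 7, which also held 558 rule UMIs. Mitochondrially encoded transcripts, read as a sign of cell quality, made up a median of 3.62% of UMIs in the 18 injured and 6.58% in the 10 uninjured cells, and their part in the ratios was not tested.

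The scar list holds actin genes called higher, such as Acta2, Tagln, Myl9, Tpm2 and Cnn2, and others that were not, Cnn1, Tpm1 and Actg2. Promoters of the list were searched for the CArG box, the site of serum response factor, in its usual form of A and T bases between CC and GG, which reads alike on both strands. RefSeq promoters of GRCm38.p6 matched 16 of the 26 listed genes, and the 250 bases before the start held the box in 2 of the 16, Myl9 and Cnn2, which are also 2 of the 7 matched genes called higher. Acta2 was matched and these letters were not in its window, while Tagln had no matched promoter and was not searched. Boxes with a changed base were not searched for, so a gene without the exact letters may still hold one. The exact box was found in 1.62% of 27025 genes with a promoter. The sequences run 5′ to 3′ on the plus strand with the box in capitals, Myl9 at chr2:156775214-156775463 and Cnn2 at chr10:79988350-79988599.
Myl9: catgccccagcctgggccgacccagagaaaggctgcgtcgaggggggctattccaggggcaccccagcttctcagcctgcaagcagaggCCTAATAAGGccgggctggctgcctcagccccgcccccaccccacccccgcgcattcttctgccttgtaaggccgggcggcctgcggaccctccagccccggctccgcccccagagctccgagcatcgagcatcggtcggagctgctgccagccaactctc
Cnn2: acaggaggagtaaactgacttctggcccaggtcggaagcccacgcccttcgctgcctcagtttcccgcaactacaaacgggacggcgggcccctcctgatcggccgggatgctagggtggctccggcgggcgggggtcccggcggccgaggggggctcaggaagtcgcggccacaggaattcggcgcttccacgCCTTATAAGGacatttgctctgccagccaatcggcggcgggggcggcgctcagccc
Cnn2, a calponin that binds actin, was 2.96-fold higher (1.81 to 5.16) in the deeper injured cells.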

How the data were processed

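Single-cell 3′ RNA counts of 1 injured and 1 uninjured library were read as the authors deposited them: raw UMI counts per gene and barcode for each library, and tables of the cells kept and of the EpA cells, from which only cell names were taken. Cell Ranger 3.0.1, Seurat and mm10 are named in the submitters' processing notes, and the filter that chose kept cells is not given in the sources used here. UMIs of the member cells were summed per library and scaled to CPM (UMIs of a gene per 1000000). Genes were called by size (100 CPM and 10 UMIs in either library, 2-fold), with exact Poisson, conditional binomial and Clopper-Pearson 95% intervals, which cover counting error only. A gene counted as measured at a mean of 20 CPM, log2 ratios used a pseudocount of 0.5 counts, and a level of 0 was set to 3 counts over the summed group for ratios.

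Named genes were the 4 rule genes and Aldh1a2, the 12 called genes in each direction with interval bounds farthest from 1, up to 4 members per list with the largest ratios, the 12 leading genes, and the highest marker of each other type. Other genes were named after their values were seen, to show the members of a list or the cells that carry a signal. The cell rule, members and gene lists were chosen with earlier results of these data known. No doublet caller was run. The call step was run on simulated counts with Poisson error alone. These held no differences between cells, depth tiers or kinds of cell, so they check the arithmetic and lend no support to the calls. TMM (edgeR) and median-of-ratios (DESeq2) factors were used for scaling alternatives only, without their tests. Python 3.11.15, pandas 2.3.3, numpy 2.4.6 and SciPy 1.17.1 were used. Gene coordinates are from GENCODE M21 (GRCm38) and promoters from RefSeq. Deposited columns without a library numbered 0.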

Additional observations from a re-analysis of the deposited data

Results flagged for a closer look

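Barcodes that the authors did not keep were outside the comparisons above, and a few met the fibroblast rule. They were 3 of 338 in the injured library (0.888%, exact 95% binomial interval 0.183 to 2.57) and 3 of 165 in the uninjured library (1.82%, 0.377 to 5.22). Their median depth was 4794 UMIs in the injured and 1812 UMIs in the uninjured library. The median share of UMIs from mitochondrial genes was 20.7% in the injured and 20.1% in the uninjured ones.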

How the results depend on the processing

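No paired analysis was possible because each condition has 1 library. Against 272 higher genes over all members, the count was 410 with TMM scaling, 1553 with UMIs per cell, 118 after thinning each cell to 1000 UMIs (26 injured and 14 uninjured cells left), 457 in the deeper cells without the bone and barrier kinds, 1337 with no floor, 535 and 150 with floors of 50 and 200 CPM, and 61 where the interval bound had to be past 2-fold. Against 332 lower genes, it was 76 with UMIs per cell, 38 after thinning, 5215 with no floor, 606 and 152 with floors of 50 and 200 CPM, and 195 by the bound. The share of fibroblasts among injured cells outside EpA was 8.93% with a rule of 0.5% of UMIs and 8.33% after thinning, and among uninjured cells 8.97% with 10 rule UMIs, 7.80% after thinning and 6.41% with at least 2000 UMIs.

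Some log2 ratios changed sign against those over all members. With UMIs per cell the change is one upward shift, the same for every gene, and for the other settings the cause was not tested. The ratios that changed sign with UMIs per cell were Cdh11 0.82, Cldn11 0.21, Col12a1 0.017, Dpt 0.96, Foxc1 0.46, Pcolce 0.94, Pdgfra 0.73, Pmp22 0.89, S100a10 0.61, Slc6a13 0.21, Slc7a11 0.75, Zic1 0.87 and Zic2 0.60, and the list medians were 0.82 for small proteoglycans, 0.75 for TGF-beta and BMP, 0.56 for complement, 0.88 for PDGF and FGF and 0.21 for arachnoid markers. With every cell weighted alike they were Birc5 -0.011, Cenpa -0.53, Cldn11 0.52, Il11 -0.25, Myl9 -0.37, Pdgfra 0.34, Thbs1 0.0196, Thbs2 -1.31 and Top2a -0.15, with a cell division median of -0.15. After thinning they were Aldh1a2 -0.51, Cnn2 -0.53, Dpt 1.91, Tead1 -0.0451, Tgfbi -0.60, Thbs1 0.69, Thbs2 -0.16 and Top2a -1.38, with a cell division median of -0.16. With a rule of 0.5% of UMIs they were Fabp7 -0.0116, Lgals3 3.16 and S100a10 0.76, and without the deepest cells Lgals3 was 4.08. In the deeper cells without those carrying bone matrix genes, Cdh11 was 0.60, Fabp7 -0.26, Spp1 7.99 and Wif1 0.59. Without the barrier kind as well, Cdh11 was 1.28, Cldn11 0.0731, Fabp7 -1.51, Lgals3 3.26, Spp1 6.74 and Thbs1 3.01. Depth limits the uninjured side, where 10 deeper cells held 150210 UMIs.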

Other observations

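Regulators and redox genes, not described above, also differed in the 28 deeper cells. Of the list of mesenchymal transcription factors, 2 of 27 measured members (17 past the floor) lay 2-fold or more above and 7 lay 2-fold or more below the uninjured level (1 above and 7 below of 27 over all 55 cells). Foxc1 and Zic1, which are needed for the meninges to form, stood at 123 CPM in injured and 319.6 CPM in uninjured cells and at 109 CPM in injured and 219.7 CPM in uninjured cells, and Zic2 at 79.7 CPM in injured and 193 CPM in uninjured cells, and over all members the log2 ratios of these 3 turned to 0.46, 0.87 and 0.60 with UMIs counted per cell. Tead1, a DNA-binding partner of the YAP coactivator, stood at 111 CPM in injured and 13.3 CPM in uninjured cells. Wif1, a secreted Wnt inhibitor, stood at 78.3 CPM in injured and 433 CPM in uninjured cells, with 56.9% of the uninjured UMIs in 1 cell, and without the cells carrying bone matrix genes its log2 ratio was 0.59. Gpx3, a secreted glutathione peroxidase, stood at 5.40 CPM in injured and 573 CPM in uninjured cells, and Mt1, a metallothionein, at 122 CPM in injured and 566 CPM in uninjured cells. Each is a level in 1 library per condition, with no test.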
